A study of Mus musculus with 24 samples.

Results

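RNA bound to oligodendrocyte (OL) ribosomes was compared with the total RNA of the same spinal cord tissue 10 days after a contusion injury (dpi 10). The 6 libraries of this comparison, 3 of the OL translatome and 3 of total RNA, were chosen by their labels out of 24 libraries in the series. The mice carried the genotype plp-cre;rpl22HA, called OL-Ribotag, and all received tamoxifen, which switches on an HA tag on the ribosomal protein RPL22 in cells in which the Cre is active. Injured mice were females of 10 to 12 weeks per the labels (the study's methods give a younger age), injured at the T9 level with 50 kdyn, and tissue was taken on dpi 2, 10 or 42. Uninjured (naive) OL-Ribotag mice, whose age the labels do not give, were collected together with the dpi 42 mice. Tissue of 2 mice was pooled, with 3 such pools in each group. A pool yielded a total RNA library, taken as input before the pull-down, and an OL translatome library, pulled down with an anti-HA antibody. The model has limits that touch each value: by the study's own staining most but not all cells with the mature OL epitope CC1 carried the tag, a few cells without CC1 carried it too, and input and pulled-down RNA were purified with different kits. The study adds that this Cre line is also active in Schwann cells, so part of the pulled-down RNA may be theirs. It also reports an apparent contamination of the pulled-down RNA with mRNA of other cells, among them microglia and macrophages.

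OLs are the cells that wrap axons of the central nervous system in myelin, a stack of membrane rich in cholesterol and galactolipids and held together by a small set of abundant proteins. They arise from OL precursor cells (OPCs), which persist in the adult cord and pass through a newly formed stage before they myelinate. Contusion kills OLs and lets blood-borne phagocytes, activated microglia, reactive astrocytes and fibroblasts fill the lesion, so total RNA on dpi 10 mixes OL transcripts with those of all these cells. A transcript is called OL enriched here when its scaled level in the OL translatome is above its scaled level in total RNA. The scaled level is not the plain share of a library, and the balance of calls depends on the scaling. Since total RNA contains the OL transcripts too, the enrichment of a purely OL transcript is bounded by the share of OL RNA in the tissue, on the scale used. In such bulk samples fewer cells of a type and less RNA per cell cannot be told apart.

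The total RNA libraries of dpi 10 held 27135366, 28097504 and 27643104 counts and the OL libraries 31655773, 31457418 and 30694911 counts. Levels are given as CPM (counts scaled to the same library total) adjusted by the trimmed mean of M values (TMM), on which 3 counts equal 0.086 to 0.117 CPM. One OL library stood apart in a limited set of genes: OL replicate 2 was more than 2-fold above both other OL libraries in 91 of 8860 genes with at least 10 CPM, against 1 gene for OL replicate 1 and 4 for OL replicate 3. The astrocyte markers Gfap and Aqp4 were among them. In naive cord, OL replicate 3 stood apart more strongly, with 430 of 8705 genes more than 2-fold above both other OL libraries, which touches the comparison with naive cord. For 2 of the 6 dpi 42 libraries, those of 1 tissue pool, the title and tissue label go against the description, and the description, which matches the name of the count column, was followed. With this assignment Mag was at 7207 to 8844 CPM in the 3 OL and 791.7 to 925.4 CPM in the 3 total libraries of dpi 42. Nothing in the labels says more of the pools than that they are separate samples, so the tests measure the spread between these pools.

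Of 17167 genes tested, 3641 (21.2%) were OL enriched on dpi 10, with a log2 fold change (log2FC) over 0.5 and a Benjamini-Hochberg adjusted p (q) under 0.05 in edgeR's quasi-likelihood test. At a log2FC under -0.5, 4680 (27.3%) were OL depleted. Highly enriched genes, past 2, numbered 441 (2.57%), and highly depleted genes, past -2, numbered 2833 (16.5%). Every OL library lay above every total library in 5015 genes (29.2%) and below in 6593 (38.4%), and 3616 of the enriched and 4635 of the depleted genes were separated in this way. The balance depended on how libraries were scaled. With TMM, 43.8% of the calls were enriched. With library sizes alone, which moved the median log2FC of all genes by -0.57, 1536 genes were enriched and 7465 depleted (17.1% of calls enriched), and with an offset for gene length and GC content, which moved it by 0.22, 4982 were enriched and 3939 depleted (55.8%). All log2FC below are relative to the TMM scale, on which the median of all genes was -0.22.

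The classes of genes held different shares of the 2 kinds of library, as their definition by this same comparison favours. Highly enriched genes took 34.5%, 33.5% and 34.6% of the counts of the OL libraries but 8.65%, 8.37% and 8.49% of the total libraries. Highly depleted genes, although far more numerous, took 0.983%, 1.22% and 1.26% of the OL libraries against 14.4%, 14.7% and 14.4% of the total libraries. The other enriched genes took 37.1%, 35.8% and 36.2% of the OL libraries against 24.6%, 24.3% and 24.5% of the total libraries. The other depleted genes took 5.11%, 5.7% and 5.32% against 17.5%, 18% and 17.5%. The plot of enrichment against level shows these classes.

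**Figure D1:**
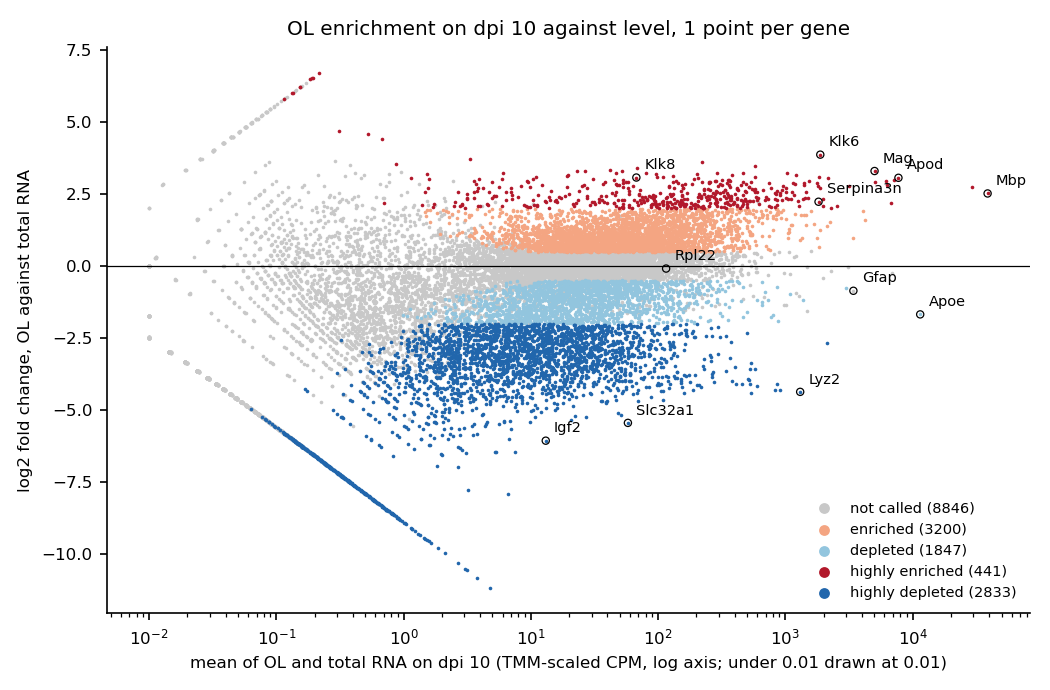
Each point is 1 of the 17167 tested genes, with its mean TMM-scaled CPM over OL and total RNA of dpi 10 on a log axis and its log2FC, OL against total RNA, on the vertical axis; colours give the call, with the counts of enriched and depleted genes leaving out the highly enriched and highly depleted ones. The abundant genes at the right are myelin genes above 2 (Mbp, Mag) and transcripts of other cells below 0 (Apoe, Lyz2), and the straight lines of points at the left are genes with counts in only 1 kind of library.

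Rpl22, the gene that carries the tag (GRCm38 chromosome 4, 152325742 to 152334071), was at 113.2, 106.8 and 116.5 CPM in the OL libraries and 119.9, 122 and 115.5 CPM in the total libraries. The groups overlapped, and its log2FC of -0.09 ± 0.09 (SE) did not pass the test (q = 0.453). Its count does not separate tagged from untagged transcripts. The paralog Rpl22l1 was depleted (log2FC -1.31, q = 1.3e-05).

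Genes for myelin proteins were enriched as a group. Of 16 members, 15 were enriched and 11 highly enriched, none was depleted, and the median log2FC was 2.55 against -0.22 for all genes. Mag, the myelin-associated glycoprotein of the innermost myelin layer (chromosome 7, 30899176 to 30914873), stood at 9928, 8644 and 8799 CPM in OL and 1007, 901.9 and 876.5 CPM in total RNA, so that each OL library was far above each total library (log2FC 3.30 ± 0.13 SE, q = 6.2e-14). Mbp, which glues the cytoplasmic faces of myelin together, was at 60470, 68570 and 69540 CPM against 10850, 12090 and 11730 CPM (log2FC 2.52 ± 0.13). Mog, on the outer surface of the sheath, read 1493, 1375 and 1448 CPM against 274.5, 242.8 and 237.2 CPM (log2FC 2.52 ± 0.11). These 3 genes separated the groups without overlap and with little spread between pools. The lowest enriched members were Omg (1.32), a surface protein also made by neurons, and Mobp (1.61), whose mRNA is carried into OL processes. The exception was the tetraspanin Cd9, made by many cell types, at 573.1, 536.2 and 500.8 CPM in OL and 402.2, 438.2 and 392.1 CPM in total RNA: OL libraries were higher, but its log2FC of 0.39 (q = 0.00517, or 0.0705 without pool 1) missed the limit of 0.5.

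Markers of mature OLs behaved alike, with 22 of 24 enriched, 19 of them highly, and a median of 2.71. The highest log2FC among genes with at least 10 CPM was that of Klk6, a secreted serine protease of the kallikrein family (chromosome 7, 43824499 to 43832030). It was at 3664, 3466 and 3442 CPM in OL and 254.3, 222.2 and 248.9 CPM in total RNA (log2FC 3.87 ± 0.27, q = 1.39e-10). Next came the protease inhibitor Serpinb1a, at 405.7, 419.5 and 405.7 CPM against 33.81, 30.68 and 35.79 CPM (log2FC 3.62 ± 0.28). Hapln2 (3.24), a link protein of the matrix at nodes of Ranvier, the iron carrier transferrin Trf (3.22), Ndrg1 (3.07), the lipocalin Apod (3.06) and Aspa (3.02), which breaks down N-acetylaspartate, followed. In this list Egln3, an oxygen-sensing prolyl hydroxylase, was at 2.408, 3.234 and 1.903 CPM in OL and 19.9, 19.9 and 18.73 CPM in total RNA, highly depleted (log2FC -2.95 ± 0.45, q = 1.08e-05), and the ferritin heavy chain Fth1 had a log2FC of -0.25.

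The 15 highest log2FC among genes at 10 CPM or more ran from 3.87 to 3.21. Beside Klk6, Serpinb1a, Mag, Hapln2 and Trf they included Tmprss5 (3.42), Nkx2-9 (3.33), Npb (3.30), Acy3 (3.29), Smtnl2 (3.28), Acy1 (3.23), Itgb4 (3.23), Shroom1 (3.22) and Gpr62 (3.21). Several are scarce next to the myelin genes: the homeobox gene Nkx2-9 read 70.6, 67.91 and 88.65 CPM in OL and 5.072, 6.718 and 10.75 CPM in total RNA, and the neuropeptide gene Npb read 45.59, 49.16 and 49.71 CPM against 3.026, 4.44 and 7.141 CPM. In both, the lowest OL library was well above the highest total library. None of the 15 passed the test of a difference in enrichment from naive cord (q of 0.311 to 0.975).

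Per kilobase of exon, the 10 most abundant transcripts of the OL libraries included Mbp (7816 CPM per kb), Apod (5367), the tubulin Tubb4a (4933), Aplp1 (4170), glutamine synthetase Glul (3286), the tight junction claudin Cldn11 (2964), Apoe (2558), Cnp (2447) and Klk6 (2329). Of those named, all but Apoe were highly enriched, between 2.52 for Mbp and 3.87 for Klk6. Apoe, the lipid carrier made by astrocytes and phagocytes, was depleted: it read 5487, 6685 and 4236 CPM in OL and 17070, 19650 and 15740 CPM in total RNA, where it was the gene with most counts (log2FC -1.68 ± 0.44, q = 0.00299). Phagocyte markers and Apoe were both high in total RNA on dpi 10, and what part of the Apoe counts in the OL libraries came with RNA of other cells was not tested.

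**Figure D2:**
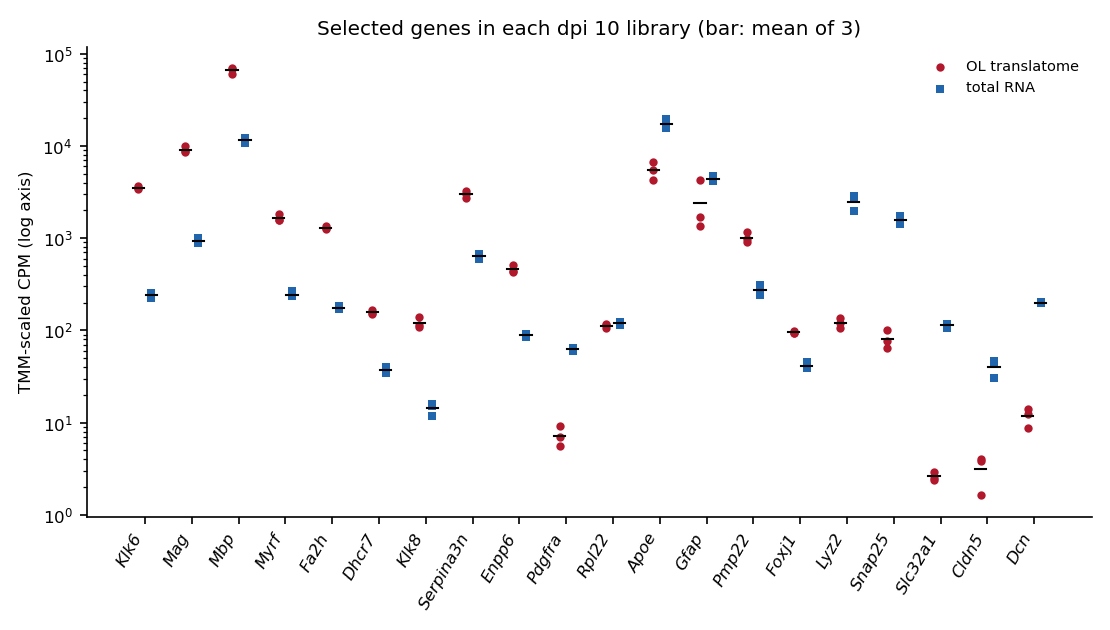
TMM-scaled CPM (log axis) of 20 genes in each dpi 10 library, red circles for the OL translatome and blue squares for total RNA, with bars at the mean of 3. Klk6, Mag, Mbp, Myrf and Fa2h separate upward, Lyz2, Snap25, Slc32a1, Cldn5 and Dcn downward, Rpl22 overlaps, and Gfap has 1 OL library (4284 CPM) far above the other two (1340 and 1687 CPM).

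Transcription factors of the OL lineage were enriched in 12 of 14 cases, 9 of them highly, with a median of 2.18. Myrf, the factor that turns on the myelin genes, was at 1839, 1582 and 1567 CPM in OL against 266.3, 233.1 and 234.7 CPM (log2FC 2.76 ± 0.14, q = 8.54e-13). Nkx6-2 (2.91), Sox10 (2.58), Nkx2-2 (2.34), Olig1 (2.04) and Olig2 (1.81), which specify and maintain the lineage, were called as well. Olig2, which OPCs and some astrocytes also use, was at 254.4, 239.7 and 222.3 CPM against 66.95, 72.49 and 64.98 CPM. The members not called were Tcf7l2, a mediator of Wnt signalling, at 11.11, 10.01 and 16.18 CPM in OL and 10.59, 12.48 and 11.7 CPM in total RNA (log2FC 0.10, q = 0.765), and Zfp488 (log2FC 0.27, q = 0.303).

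Stages of the lineage divided. Of 11 OPC markers, 10 were depleted and none enriched, with a median of -1.94. The growth factor receptor Pdgfra was at 5.592, 6.925 and 9.097 CPM in OL and 59.89, 62.19 and 64.47 CPM in total RNA (log2FC -3.11 ± 0.37, q = 3.98e-07), and the proteoglycan genes Vcan (-3.07) and Cspg4 (-2.42) were depleted too. Pcdh15 (-0.49, q = 0.199) was not called. Of 10 markers of newly formed OLs, 2 were enriched and 5 depleted, against 21.2% and 27.3% of all genes. The count of enriched members thus did not set this list apart. The share depleted was above that of all genes, and the median of the list was -0.47. Its summed CPM in OL, in which abundant members weigh most, was nonetheless 219%, 216% and 235% of that in total RNA of the same pools. Enpp6, a choline phosphodiesterase, was highly enriched at 517.5, 427.5 and 439.9 CPM against 90.47, 89.36 and 84.63 CPM (log2FC 2.39 ± 0.17), and Bcas1 reached 1.80. Gpr17, a receptor found in committed precursors, was at 13.98, 23.02 and 16.44 CPM in OL against 173.2, 186.9 and 141.6 CPM in total RNA (log2FC -3.23 ± 0.35), and Bmp4 (-3.62), Neu4 (-2.14), Itpr2 (-1.20, lost without OL replicate 1 with q = 0.079 and without pool 1 with q = 0.0866) and Tmem163 (-0.74) were depleted with it.

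All 8 genes of OL gap junctions and axon contacts were enriched. The connexin Gjb1 was at 1055, 1021 and 1053 CPM against 125.4, 119.8 and 120.8 CPM (log2FC 3.10 ± 0.14, q = 3.25e-13), with every OL library far above every total library. The juxtaparanodal adhesion protein Cntn2 was at 2.87, and Nfasc (1.29), which neurons make too, was the lowest. Of 8 cytoskeletal genes of OLs 7 were enriched, among them Gsn (3.09), Tubb4a (2.96), Sept4 (2.95) and Anln (2.91). Sept2 (0.39) was not called. Of 8 genes for inhibitors of axon growth in myelin, 7 were enriched: Mag, the ephrin Efnb3 (2.86), the semaphorin Sema4d (2.38), Rtn4 (1.90), which encodes Nogo, Omg, Sema5a (1.06) and Sema6a (0.87). With library sizes alone Sema5a (0.48, q = 0.094) and Sema6a (0.29, q = 0.13) lost the call. Lingo1, a co-receptor for these inhibitors on neurons, was highly depleted at 3.146, 5.935 and 2.36 CPM against 46.96, 37.17 and 44.11 CPM (log2FC -3.48 ± 0.46).

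Genes of lipid synthesis were enriched almost throughout. In the cholesterol pathway 19 of 20 members were enriched, with a median of 1.39, from Hsd17b7 (0.53, q = 0.0424, with a q of 0.0539 to 0.17 in all 9 fits that left out 1 library or pool) to Dhcr7 (2.06), an enzyme of the last steps, which read 154.4, 150 and 166.6 CPM against 37.82, 34.8 and 40.12 CPM. Hmgcs1 (1.86), an early step, was called too, and Tm7sf2 (0.06) was not. With library sizes alone 12 of the 20 were enriched. Of 18 genes of myelin lipid synthesis 17 were enriched, with a median of 1.65. Fa2h, which hydroxylates the fatty acids of myelin galactolipids, was at 1350, 1267 and 1285 CPM against 170.9, 182.9 and 170.7 CPM (log2FC 2.90 ± 0.17, q = 6.54e-12). Ugt8a (2.38), which adds the galactose, the desaturase Scd2 (2.20) and the sulfotransferase Gal3st1 (2.16) were highly enriched as well. Acly (-0.29), which supplies acetyl-CoA in all cells, was not called. Cholesterol genes were thus enriched less than myelin protein genes in their medians (1.39 against 2.55), a description with no test.

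**Figure D3:**
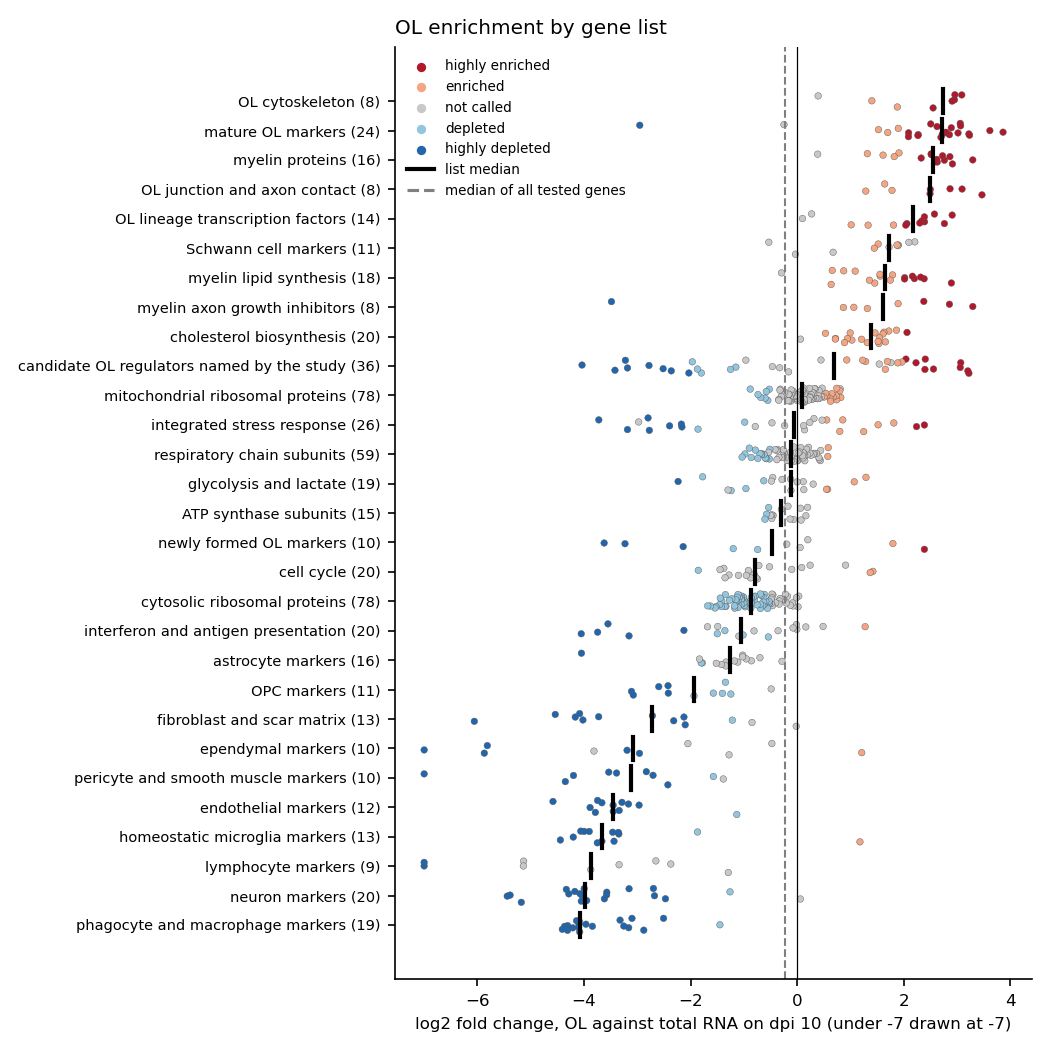
Log2FC, OL against total RNA on dpi 10, of the tested members of 29 gene lists, 1 point per gene coloured by its call, with the number of tested members in brackets, a black bar at the list median and a dashed line at the median of all genes (-0.22). Lists of myelin, mature OL and lineage factors sit near 2 to 3, lipid synthesis between 1 and 2, energy and ribosome lists near 0 or just below, and lists of phagocytes, neurons and vessels near -3 to -4.

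Transcripts of other cells in the lesion were depleted to different degrees. Of 19 markers of phagocytes and macrophages all were depleted, 18 highly, with a median of -4.08. Lyz2, the lysozyme of myeloid cells, was at 120.7, 136.3 and 106.6 CPM in OL and 2631, 2861 and 1996 CPM in total RNA (log2FC -4.36 ± 0.26, q = 9.62e-12). Tyrobp (-4.41), C1qa (-4.10) and Gpnmb (-4.08) were depleted as strongly. The summed CPM of this list in OL was 5.92%, 6.13% and 7.23% of that in the total RNA of the same pools. Homeostatic microglia markers were depleted in 12 of 13 cases, with a median of -3.66, among them the fractalkine receptor Cx3cr1 (-4.06). Sall1, a transcription factor used to mark microglia, was the exception, at 158.9, 147.6 and 162.9 CPM in OL against 67.07, 73.73 and 66.47 CPM (log2FC 1.18, q = 5.81e-06).

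Neuron markers were depleted in 19 of 20 cases, 18 of them highly, with a median of -3.97. The synaptic gene Snap25 was at 76.89, 63.92 and 101 CPM against 1573, 1408 and 1734 CPM (log2FC -4.29 ± 0.26). The vesicular transporter for inhibitory transmitters, Slc32a1, was the second lowest of all genes at 10 CPM or more, at 2.369, 2.93 and 2.512 CPM against 117.8, 107.1 and 114.9 CPM (log2FC -5.44 ± 0.32). Only Tubb3 (0.06) was not called. All 12 endothelial markers were depleted (median -3.45), with Cldn5 at 1.631, 3.843 and 4.035 CPM against 30.82, 42.85 and 47.12 CPM (log2FC -3.66). Of 10 pericyte and smooth muscle markers 9 were depleted (median -3.11, or -3.06 when Higd1b, with no count in any OL library and at least 9.79-fold lower than in total RNA, is set to a floor of 3 counts per library). Lymphocyte genes were too scarce for most tests: 5 of 9 had no count in any OL library. Only 2 of the 9 were called depleted (0 with a block for the tissue pool), a share below the 27.3% of all genes. The median was -3.87, or -2.43 with the genes without a count in OL at the floor.

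Fibroblast and scar matrix genes were depleted in 11 of 13 cases, with a median of -2.72. Decorin, Dcn, was at 8.66, 12.48 and 13.89 CPM against 201.7, 195.8 and 196.1 CPM (log2FC -4.08), and the growth factor Igf2 was the lowest of all genes at 10 CPM or more, at 0.466, 0.0761 and 0.609 CPM against 28.68, 26.15 and 22.66 CPM (log2FC -6.06 ± 0.64). The collagen Col1a2 was less depleted, at 299.5, 278.2 and 230 CPM against 615.6, 674 and 586.7 CPM (log2FC -1.22, q = 7.98e-05). Periostin, Postn, overlapped between the groups, at 35.84, 33.18 and 24.02 CPM against 34.26, 33.59 and 26.27 CPM (log2FC -0.02).

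Astrocyte markers varied between the OL libraries. The intermediate filament Gfap was at 1340, 4284 and 1687 CPM in OL and 4356, 4684 and 4213 CPM in total RNA, and the water channel Aqp4 at 184.7, 621.2 and 236.1 CPM against 1210, 1251 and 1117 CPM. OL replicate 2 was the highest in both. Gfap had a log2FC of -0.86 (q = 0.289), or -1.50 without OL replicate 2 (q = 0.104). The summed CPM of the list was 27.4%, 78.3% and 34.7% of that in total RNA of the same pools. Of 16 members 3 were depleted, a share below the 27.3% of all genes, and none enriched, with a median of -1.26: Hgf (-4.05), Gjb6 (-1.80, q = 0.0246, lost in 4 of 9 fits that left out 1 library or pool) and Aqp4 (-1.78, q = 0.0499, lost in 7 of 9). Without OL replicate 2, 6 were depleted with a median of -1.85, with Hgf at -4.50, Gjb6 at -2.16 and Aqp4 at -2.46, and with a block for the tissue pool 6 were depleted. Without OL replicate 1 or OL replicate 3 only 1 was, and without pool 3 there was none. With the dpi 10 libraries fitted on their own 12 were depleted. Hgf, a growth factor gene, had a q of 0.0557 without pool 3. In the same pool the OPC list, at 30.7% against 19.6% and 21.5%, and the glycolysis list, at 104% against 89.8% and 83.6%, were above the other pools too, whereas the phagocyte list (6.13%) and the neuron list (13.4%) were within or below their range.

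**Figure D4:**
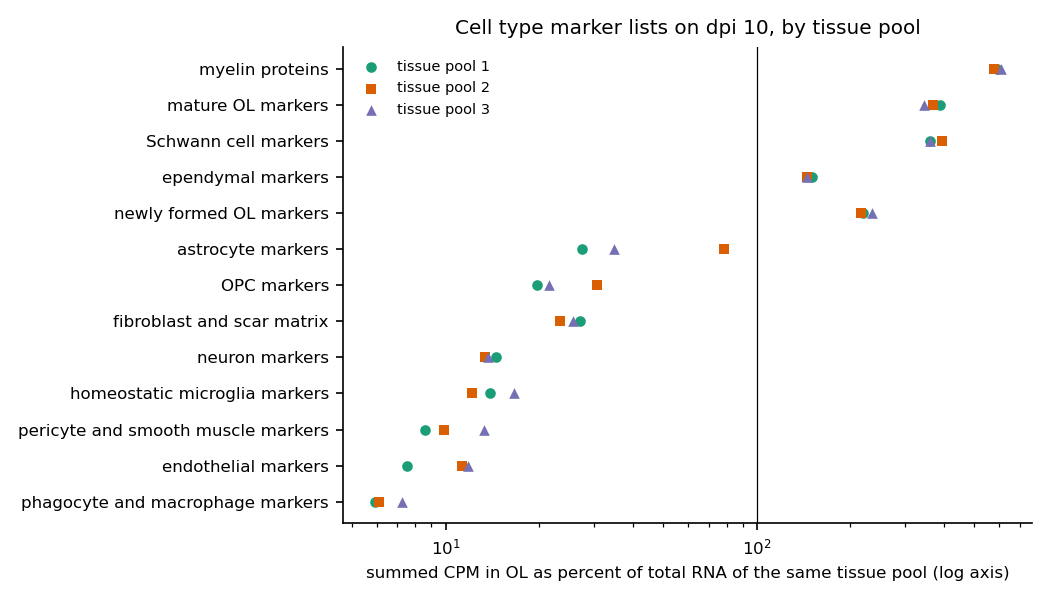
Summed CPM of each marker list in OL as a percent of that in the total RNA of the same tissue pool on dpi 10 (log axis), 1 symbol per pool; the line marks 100%. Most lists differ little between pools, whereas the astrocyte list is at 78.3% in pool 2 against 27.4% and 34.7% in the other pools. The ependymal list lies above 100%, and Foxj1 made up most of its sum in OL.

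Schwann cell markers, which mark the myelinating cells of spinal roots and of repair in the lesion, lay on the side of the OL genes. Their summed CPM in OL was 361%, 395% and 359% of total RNA. Of 11 members 4 were enriched, Pmp22 (1.90), Ngfr (1.87), Ncmap (1.52) and Cdh19 (1.45), against 21.2% of all genes. None was depleted and 7 were not called. Pmp22 was at 1170, 909.8 and 969.1 CPM against 313.1, 239.5 and 264.2 CPM. It was a large part of the list's sums in OL of 2878, 1970 and 1962 CPM. Ncmap lost its call in 7 of 9 fits that left out 1 library or pool (q of 0.0762 to 0.166), and Ngfr was at 2.47 without total replicate 1. With a block for the tissue pool 7 of the 11 were enriched. Whether these counts came from tagged Schwann cells was not tested.

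Ependymal markers split. Of 10 members 5 were depleted (27.3% of all genes were), 2 of them with no count in any OL library. The median was -3.08 (-2.50 with the members without a count at the floor). The count of depleted members was 3 with a block for the tissue pool and 2 without OL replicate 3. The ciliary factor Foxj1 was enriched at 93.12, 98.92 and 92.95 CPM against 38.71, 45.36 and 38.92 CPM (log2FC 1.21 ± 0.16, q = 1.66e-06), with no overlap between groups. Foxj1 made up most of the list's summed CPM in OL (110, 116.8 and 106.9 CPM). That sum was 151%, 145% and 145% of total RNA, although most members were lower in OL.

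The 15 lowest log2FC among genes at 10 CPM or more ran from -6.06 to -4.91. Most are neuronal: beside Slc32a1 they included the neuropeptide genes Tac1 (-5.25), Cck (-5.01) and Nts (-5.00), the glycine receptor subunit Glra1 (-4.91), the cannabinoid receptor Cnr1 (-4.93), the glutamate transporter Slc17a6 (-5.18), the calcium pump Atp2b3 (-5.19), Resp18 (-5.10) and Fstl5 (-5.05). Others were Igf2, Serpinb1b (-5.34), the Toll-like receptor Tlr13 (-4.99) of phagocytes and Cd248 (-4.94), a stromal gene. Single libraries moved some of these scarce genes: Fstl5 was at -5.75 without OL replicate 1 and -4.43 without OL replicate 2, Glra1 at -5.97 without pool 3, and Cnr1 at -5.60 without pool 2. Serpinb1b, at 1.398, 1.065 and 0.533 CPM in OL against 43.07, 33.62 and 44.62 CPM in total RNA, is a close relative of Serpinb1a, which lay at the opposite end.

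Genes used by all cells were near the middle, and of their lists only the cytosolic ribosomal proteins had a share of calls above that of all genes (21.2% enriched and 27.3% depleted). Of 59 nuclear genes of the respiratory chain 2 were enriched, Ndufv1 and Uqcrc2 (both 0.58), and 14 depleted, with a median of -0.11 that turned to 0.28 with the offset for length and GC content. Of 15 ATP synthase subunits 3 were depleted (1 without OL replicate 1 and 6 without total replicate 2) and none enriched, with a median of -0.30, or 0.14 with that offset. Of 78 mitochondrial ribosomal proteins 12 were enriched and 7 depleted (4 without OL replicate 1), with a median of 0.10, or -0.48 with library sizes alone. Cytosolic ribosomal proteins were lower in OL: 58 of 78 were depleted and none enriched, with a median of -0.86. Rps15a was at 36.08, 33.52 and 35.4 CPM against 112.9, 115.7 and 107.3 CPM (log2FC -1.68 ± 0.11). With the offset for length and GC content 42 of the 78 were depleted. Cytosolic ribosomal protein genes are short and have near-identical pseudogenes, so that the counts of single members are uncertain.

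In glycolysis 4 of 19 genes were enriched and 5 depleted, shares close to those of all genes (21.2% and 27.3%), so the counts set the list apart in neither direction. The transporters for glucose, Slc2a1 (1.29), and lactate, Slc16a1 (1.07), together with Gapdh (0.57) and the pyruvate carrier subunit Mpc1 (0.55) were enriched, whereas Pfkp (-2.23), Ldha (-1.77), Pkm (-1.24), Tpi1 (-0.96) and Pgam1 (-0.63) were depleted. Slc16a1, through which OLs pass lactate to axons, was at 261.6, 277.3 and 269.9 CPM against 126.5, 128.7 and 129.4 CPM, and Ldha was at 34.02, 62.89 and 33.04 CPM against 150.7, 159.6 and 134 CPM. Both pairs of groups were without overlap. Without OL replicate 2 Ldha was at -2.10 and Pfkp at -2.57. Left out singly, OL replicates 1 and 3 and pools 1 and 3 took Ldha past the threshold (q of 0.0558 to 0.0845), pools 1 and 3 Pfkp (0.0594 and 0.0575) and pool 1 Tpi1 (0.0599).

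Targets of the integrated stress response, a program of amino acid supply and repair under translational stress, had members called in both directions, with 8 of 26 enriched and 9 depleted, not far above the shares of all genes (21.2% and 27.3%). The enzymes of serine synthesis were enriched together: Psat1 (2.39), Phgdh (2.24) and Psph (1.52). Psat1 was at 1060, 931.8 and 953.7 CPM in OL against 195.4, 179.5 and 187.7 CPM. Asns (-2.80), Slc7a11 (-2.77) and Atf3 (-2.39) were highly depleted, and the central factor Atf4 was at 88.97, 83.4 and 102.8 CPM against 103.9, 105.7 and 114 CPM (log2FC -0.23, q = 0.129). Of 20 cell cycle genes 17 were not called, and the shares enriched and depleted were below those of all genes (21.2% and 27.3%). The replication genes Pcna (1.42) and Mcm2 (1.37) were enriched and Mki67 (-1.86) depleted. Under a block for the tissue pool and without OL replicate 2 or 3, 3 were depleted. Of 20 genes of interferon response and antigen presentation 9 were depleted (27.3% of all genes were), 1 was enriched (21.2% of all genes were) and 10 were not called. The depleted ones were led by the class II genes Cd74 (-4.05) and H2-Ab1 (-3.74). The enriched one was Ifi27, at 132.7, 130.6 and 109 CPM against 50.96, 52.97 and 49.67 CPM (log2FC 1.28, q = 2.81e-06). The class I light chain B2m was at 341.1, 411.9 and 344.2 CPM against 835.1, 1020 and 953.6 CPM (log2FC -1.36).

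The study named 36 candidate genes in this series, chosen largely on OL levels of the other groups (a rise on dpi 2 over naive cord that had waned by dpi 42). Its filter also required a gain in OL enrichment over total RNA after injury, or OL enrichment both before and after it. OL enrichment was thus part of the choice, which can favour enriched genes. Of the 36 candidates 16 were enriched, 9 of them highly, and 13 depleted, 8 of them highly, against 21.2% and 27.3% of all genes. Klk8, a kallikrein protease next to Klk6 on chromosome 7 (43797577 to 43803826), was at 140.2, 114.3 and 107.5 CPM in OL against 16.08, 11.71 and 15.29 CPM (log2FC 3.07 ± 0.36, q = 2.51e-07). Serpina3n, a secreted inhibitor of serine proteases (chromosome 12, 104406729 to 104414329), was at 3239, 3022 and 2762 CPM against 660.1, 673.8 and 587.5 CPM (log2FC 2.23 ± 0.19, q = 3.1e-09). Both were without overlap. The peroxidase gene Lpo (2.40) and Fgfbp3 (2.04), which releases fibroblast growth factors from the matrix, were highly enriched too, whereas the phosphatase Ptpn5 (-4.04) and the stress gene Chac1 (-3.18) were highly depleted.

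The enrichment of dpi 10 was set against that of naive cord by the interaction in the same model, which asks whether OL against total RNA differed between the groups. Naive tissue was collected with the dpi 42 tissue, from mice that were older and further from tamoxifen than those of dpi 10, so injury, age, time since tamoxifen and collection cannot be told apart in this difference. Enrichment was more than 1 log2 unit higher on dpi 10 for 254 genes (1.48%) and lower for 245 (1.43%), with a median difference of 0.08 over all genes. Without naive OL replicate 3 the counts were 288 and 381. The higher genes numbered 149 without naive OL replicate 1, 138 without naive OL replicate 2, and 149, 155 and 114 without dpi 10 OL replicates 1, 2 and 3, and the lower ones 163 without pool 2 of dpi 10. With the offset for length and GC content there were 159 higher.

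Of the OL genes, those with a q under 0.05 were mostly lower in enrichment on dpi 10 (at any size, 3.09% of all genes were lower and 4.57% higher). They were 2 of 16 myelin protein genes, Cd9 (-1.17, q = 6.38e-05) and Cd82 (-0.45, q = 0.0315, lost in 7 of 15 fits that left out 1 library or pool), 2 of 14 lineage factors, among them Tcf7l2 (-1.31, q = 0.0277, lost in 6 of those 15), 2 of 18 genes of myelin lipid synthesis, 1 of 10 markers of newly formed OLs and 1 of 8 axon growth inhibitors, Sema6a (-1.01, q = 0.00797, or 0.0516 without pool 2 of dpi 10). Of 24 mature OL markers 1 was higher and 1 lower, and none of 20 cholesterol genes, 8 junction genes and 8 cytoskeletal genes passed, which does not show that these were equal. Levels can change in both kinds of library without a change in enrichment. The summed CPM of the cholesterol list was 4679 to 5975 in naive OL and 2468 to 2532 in dpi 10 OL. In total RNA it was 1732 to 1871 CPM and 860.7 to 927 CPM. The myelin lipid list was lower too, at 26860 to 31290 CPM in naive OL and 17270 to 19220 CPM in dpi 10 OL. Cd9 rose in total RNA from 84.79, 70.48 and 64.81 CPM in naive cord to the level above, and in OL from 222.8, 220.2 and 204.6 CPM. Klk8 crossed from depleted in naive cord (log2FC -2.07) to highly enriched (difference 5.14 ± 0.61 SE, q = 2.34e-05). The naive libraries held at most 0.7984 CPM in OL and 2.934 CPM in total RNA, and the difference was 4.40 without naive OL replicate 3. Serpina3n moved from 0.08 to 2.23 (difference 2.15, q = 3.35e-05), from 86.39, 47.21 and 44.87 CPM in naive OL. Fxyd7, a regulator of the sodium pump (chromosome 7, 31042513 to 31051467), had the smallest p among the higher genes: it was at 5.883, 6.177 and 6.426 CPM in naive OL and 54.33, 57.34 and 60.6 CPM on dpi 10, with 67.58, 70.77 and 76.99 CPM in naive total RNA and 56.12, 51.21 and 52.31 CPM on dpi 10 (difference 3.65, q = 3.44e-10). Cacng5 (3.94), Plvap (3.98), Slc9a3r2 (2.72), Diras1 (2.01), Snx10 (1.94), Nlgn2 (1.58) and Bri3bp (1.30) were the others of the 8 named by that rule. Some of these are known from neurons, such as the postsynaptic adhesion gene Nlgn2 and the auxiliary AMPA receptor subunit Cacng5, and the summed CPM of the neuron list in OL was 8.76%, 7.67% and 7.7% of total RNA in naive cord against 14.5%, 13.4% and 13.7% on dpi 10. The sum itself was lower on dpi 10 in both kinds of library, at 1058 to 1172 CPM in naive OL and 828.7 to 940.3 CPM in dpi 10 OL, and at 13380 to 14350 CPM and 6183 to 6636 CPM in total RNA. Its part in these results was not tested.

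The 8 genes with the smallest p for lower enrichment included the lysosomal enzymes Ctsz (-2.84), Ctsd (-2.93), Man2b1 (-2.46) and Hexa (-2.05), the progranulin gene Grn (-3.08), the integrin Itgb5 (-2.20) and Unc93b1 (-2.01), which carries Toll-like receptors to endosomes. Ctsz, a lysosomal protease (chromosome 2, 174427493 to 174439039), was at 116.6, 117.1 and 123 CPM in naive OL and 193, 207.4 and 194.5 CPM in dpi 10 OL, while total RNA went from 49.44, 45.81 and 37.91 CPM to 483.9, 603.9 and 501.8 CPM. It rose in both, by 0.74 on the log2 scale in OL (q = 0.000187) and by 3.58 in total RNA (q = 9.66e-14). Ctsd did likewise, with 0.81 in OL and 3.73 in total RNA. The summed phagocyte markers rose beside them, from 295.7 to 389.6 CPM in naive total RNA to 8021 to 10950 CPM on dpi 10, and from 19.84 to 28.08 CPM to 531.7 to 671.1 CPM in OL, and their part in these differences was not tested. The phagocyte genes Gpnmb (-3.83, or -2.49 without naive OL replicate 3) and Lpl (-2.59, or -3.19 without naive total replicate 1) and the collagen Col1a2 (-1.87) were lower in enrichment as well. Apoe read 901.8, 1120 and 4841 CPM in naive OL, with OL replicate 3 apart, and its difference of -2.01 (q = 0.0499) was -0.95 without that library (q = 0.144) and -1.56 with a block for the tissue pool (q = 0.102). The call was lost in 13 of 15 fits that left out 1 library or pool (q of 0.0507 to 0.151), with library sizes alone (q = 0.051), without the dpi 42 libraries (q = 0.064) and with only the groups compared (q = 0.0832). Of 59 respiratory chain genes 24 were higher in enrichment than in naive cord (background of any size 4.57%) and none lower (3.09%), with a median difference of 0.55 that stayed at 0.37 to 0.56 under all alternatives. The count was less stable: it was 29 to 31 with the block for the tissue pool, with a DESeq2 Wald test, with only the groups compared and without the dpi 42 libraries, 12 with library sizes alone and 8 with the offset for length and GC content. It was 4 to 15 without any of the dpi 10 OL libraries or pools, dpi 10 total replicates 1 or 2, naive OL replicates 1 or 2 or naive total replicate 1, and 17 to 21 in the other fits that left out 1 library. The summed CPM of the respiratory chain list overlapped in OL, at 5037 to 5849 CPM in naive cord and 5241 to 5569 CPM on dpi 10. In total RNA it was lower on dpi 10, at 7737 to 7838 CPM in naive cord and 5367 to 5726 CPM on dpi 10. Slc16a1 was lower in enrichment (-0.86, q = 0.00857).

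**Figure D5:**
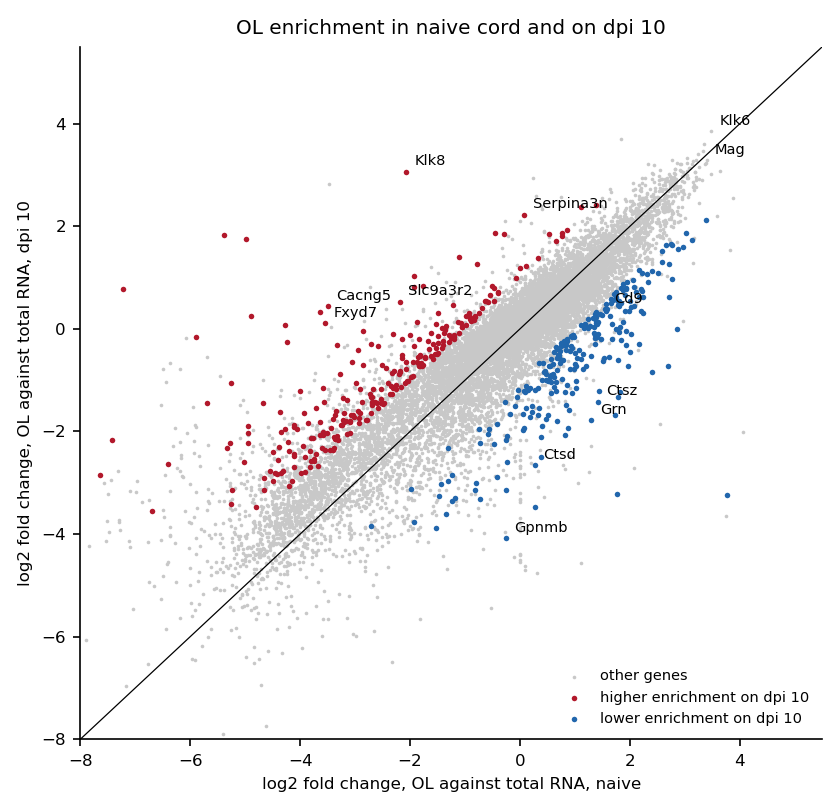
Log2FC, OL against total RNA, in naive cord (horizontal) and on dpi 10 (vertical) for genes with a mean of at least 1 CPM on dpi 10, with the line of equal values and points beyond the axes not drawn; coloured genes differ by more than 1 with q under 0.05. Klk6 and Mag lie near the line at the top right, Klk8 (-2.07 and 3.07), Fxyd7 and Cacng5 far above it, and Ctsz, Grn, Ctsd and Gpnmb below it.

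Against dpi 2, enrichment on dpi 10 was more than 1 log2 unit higher for 110 genes (0.641%) and lower for 54 (0.315%). These counts depended on single libraries: left out singly, they gave 35 (without pool 1 of dpi 10) to 236 (without dpi 2 OL replicate 3) higher and 22 (without pool 1 of dpi 10) to 64 (without dpi 2 total replicate 2) lower genes. Of 78 cytosolic ribosomal proteins 50 had lower enrichment on dpi 10 than on dpi 2 (background of any size 0.903%), with 26 under the offset for length and GC content and 22 without pool 2 of dpi 10. Of 20 cell cycle genes 6 had higher enrichment (background 1.24%), with 2 without pool 3 of dpi 10. The median log2FC of this list was -2.67 on dpi 2 and -0.79 on dpi 10. All 20 genes summed to only 167.6 to 175.2 CPM in dpi 10 OL, and the part of low counts in this difference was not tested. Klk8 and Serpina3n did not pass this test (differences of 0.21 and 0.26): Klk8 was at 315.7, 351.6 and 290.9 CPM in OL on dpi 2 and 40.62, 33.26 and 46.87 CPM on dpi 42, so that its level in OL ran from dpi 2 over dpi 10 to dpi 42 without overlap. Against dpi 42, 8 genes (0.0466%) were higher past 1 and 1 (0.00583%) lower, with 2004 genes at an unadjusted p under 0.05. The lower one was Gal, the neuropeptide galanin, named after its values were seen, with no count in the dpi 10 OL libraries and 7.92, 7.439 and 7.341 CPM in total RNA (q = 0.0276, lost in 6 of 9 fits that left out 1 library or pool). Left out singly, dpi 10 libraries gave 0 to 12 higher and 0 to 4 lower genes. Without the 2 dpi 42 libraries whose labels conflict there were 4 higher genes, of which 1 was among the 8, and 1 lower, which was not Gal (q = 0.0831).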

How the data were processed

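Per the labels and the study's methods, the authors checked reads with FastQC 0.10.1, aligned them to mm10 (GRCm38.p6) with STAR and counted reads per gene with HTSeq 0.10.0. They deposited these raw counts, not normalized, for 21965 genes in 24 libraries, 1 column per library. Here the 17167 genes whose counts summed to 10 or more were tested. Libraries were TMM-scaled, and the quasi-likelihood model of edgeR 4.0.16 (R 4.3.3) estimated a mean per group over 8 groups, without a block, so that all libraries shared 1 estimate of the spread (16 residual degrees of freedom). q is the Benjamini-Hochberg adjusted p over all tested genes. The SE comes from the model and holds the spread between libraries, the floor of 3 counts covers counting error only, and reads carried no molecular identifiers. The counting strand is not given in the sources used here, so overlapping genes cannot be told apart. GENCODE M21 (GRCm38) gave symbols to 21939 genes, and positions and exon lengths.

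Named genes are members of 29 lists, the 15 highest and 15 lowest log2FC at a mean of 10 CPM or more with separated groups, the 10 highest levels per kb, the 8 smallest p in each direction of the difference from naive cord, and Rpl22 with Rpl22l1. A few genes that meet these rules are not reported here. Genes outside the rules are marked as chosen after their values were seen. Members and lists were chosen with earlier results of these data known. The scripts were tested on simulated counts. Tissue pools pair OL and total libraries by design. Deviations of libraries of the same pool correlated across genes at 0.152, 0.0672 and 0.0989, and those of different pools at -0.0977 to 0.00626. Replicates differed by more than sampling noise (median chi-square per gene 4.27 to 6.71). Alternatives were other scalings, filters, tools (DESeq2 1.42.0), a block for the tissue pool, an offset for length and GC content, and leaving out each library or pool.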

Additional observations from a re-analysis of the deposited data

Results flagged for a closer look

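The enrichment of OL over total RNA differed between dpi 10 and another group, by the interaction term in edgeR's quasi-likelihood test, for the following results. Against naive cord 254 genes were higher and 245 lower, against dpi 2 these were 110 and 54, and against dpi 42 there were 8 and 1. The latter was Gal (q = 0.0276), with no count in the dpi 10 OL libraries.

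Among the named genes, enrichment was higher on dpi 10 than in naive cord for Klk8 (difference in log2FC 5.14), Plvap (3.98), Cacng5 (3.94), Fxyd7 (3.65), Slc9a3r2 (2.72), Serpina3n (2.15), Diras1 (2.01), Snx10 (1.94), Nlgn2 (1.58) and Bri3bp (1.30), and, chosen after their values were seen, for Mdga1 (2.96), Fos (2.74) and Gpc1 (1.34). It was lower for Gpnmb (-3.83), Grn (-3.08), Ctsd (-2.93), Ctsz (-2.84), Lpl (-2.59), Man2b1 (-2.46), Itgb5 (-2.20), Hexa (-2.05), Unc93b1 (-2.01), Apoe (-2.01), Col1a2 (-1.87), Tcf7l2 (-1.31), Cd9 (-1.17), Sema6a (-1.01), Slc16a1 (-0.86) and Cd82 (-0.45), and, chosen after their values were seen, for Lipa (-2.32) and Gusb (-2.19). No formal test for single outlying libraries was made. Genes with 1 library more than 2-fold from both others of its group were counted in the naive and dpi 10 groups only.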

How the results depend on the processing

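With library sizes alone 1536 genes were OL enriched, 150 highly, and 7465 depleted, and with the offset for length and GC content 697 were highly enriched. A test against the limits themselves (glmTreat) left 200 highly enriched and 1110 highly depleted genes. With the block for the tissue pool 3596 genes were enriched and 4448 depleted, and the block changed no call of a gene named above other than those of Apoe against naive cord (q = 0.102), Acly (q = 0.0252) and Fth1 (q = 0.0285), both of the latter with log2FC short of the limit of 0.5. Leaving out 1 dpi 10 library or pool gave 3303 to 3782 enriched, 399 to 478 highly enriched, 3675 to 4304 depleted and 2259 to 2674 highly depleted genes. Against naive cord the offset gave 159 higher genes, and leaving out 1 library or pool 114 to 288 higher (165 and 167 without pools 2 and 3 of dpi 10) and 163 to 381 lower (186 without dpi 10 total replicate 2). Against dpi 2 a DESeq2 Wald test gave 174 higher and 104 lower genes, leaving out 1 library or pool 35 to 236 (45 without pool 2 and 56 without total replicate 3 of dpi 10) and 22 to 64 (27 and 31 without pools 2 and 3 and 25 without OL replicate 1 of dpi 10), and leaving out pool 2 of dpi 2, chosen after seeing the data, 73 higher (55 of the 110). Against dpi 42, where all alternatives were chosen after seeing the data, the DESeq2 Wald test gave 91 higher and 20 lower, the offset 0 and 0, leaving out the 2 dpi 42 libraries whose labels conflict 4 and 1, and leaving out 1 dpi 10 library or pool 0 to 12 (5 without pool 2) and 0 to 4. The cause of these changes was not tested.

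The direction turned for list medians near 0: respiratory chain 0.28 and ATP synthase 0.14 with the offset, and mitochondrial ribosomal proteins -0.48 with library sizes alone. It also turned for genes near 0. With library sizes alone the log2FC were -0.19 (Cd9), -0.47 (Tcf7l2), -0.31 (Zfp488), -0.18 (Sept2), -0.0453 (Hsd17b7), -0.51 (Tm7sf2), -0.52 (Tubb3), -0.0037 (Uqcrc2), -0.0056 (Gapdh) and -0.0257 (Mpc1). With DESeq2 size factors and the DESeq2 Wald test they were -0.0235 (Tm7sf2) and -0.0266 (Tubb3), with the offset 0.0664 (Rpl22) and 0.35 (Postn), and with the dpi 10 libraries fitted on their own 0.0439 (Postn). Leaving out 1 library or pool gave -0.13 to 0.29 for Tcf7l2 (-0.10 without OL replicate 3), -0.0677 to 0.17 for Tm7sf2 (-0.0080 without OL replicate 2), -0.0518 to 0.16 for Tubb3 (-0.0191 without OL replicate 1) and -0.13 to 0.17 for Postn (0.0247 without pool 3). Calls of named genes that lost the test or fell near 0 without turning were, with library sizes alone, Sema5a, Sema6a, Ncmap (q = 0.206) and Ndufv1 (0.0057), with the offset Itpr2 (q = 0.0542), Aqp4 (q = 0.0893) and, against naive cord, Cd82 (q = 0.0766), with the DESeq2 Wald test Hsd17b7 (q = 0.0893), and without the dpi 42 libraries Aqp4 (q = 0.056) and Ncmap (q = 0.0776). None of the turned gene values passed the test and the limit except Tubb3 with library sizes alone (q = 0.0159). Depth limits genes near the floor of 3 counts, such as lymphocyte markers.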

Other observations

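Some genes changed sides between naive cord and dpi 10. They were chosen after their values were seen. Of 4907 genes OL depleted in naive cord, 11 were OL enriched on dpi 10 with a difference past 1 in the test of the difference, and 9 of these 11 rose in OL against naive cord, which choosing genes that changed sides this way favours. Beside Klk8 and Slc9a3r2 they included the immediate early transcription factor Fos, the adhesion gene Mdga1 and the proteoglycan gene Gpc1. Fos was at 5.379, 3.088 and 2.448 CPM in naive OL against 14.3, 15.06 and 12.08 CPM in naive total RNA, and at 31.49, 50.95 and 33.42 CPM in dpi 10 OL against 17.74, 24.51 and 23.49 CPM in total RNA (difference 2.74, q = 2.9e-05). The OL libraries thus lay below total RNA in naive cord and above it on dpi 10, without overlap. Mdga1 was at 4.748, 3.131 and 6.082 CPM in naive OL and 35.73, 28.73 and 25.46 CPM in dpi 10 OL, while total RNA was at 14, 17.96 and 20.95 CPM and 16.55, 15.05 and 12.07 CPM (difference 2.96, q = 4.11e-05). Gpc1 went from 106.4, 106.6 and 84.34 CPM to 265.7, 223.7 and 231.4 CPM in OL (difference 1.34, q = 5.9e-05).

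In the other direction 40 of 3733 genes OL enriched in naive cord were OL depleted on dpi 10. All 40 rose in total RNA against naive cord (q under 0.05), which choosing genes that changed sides this way favours, and in OL 8 rose and 2 fell. Beside Ctsz and Grn they included Lipa and Gusb. Lipa, the lysosomal acid lipase that frees cholesterol from its esters, was at 63.32, 73.78 and 56.3 CPM in naive OL and 57.82, 39.19 and 48.68 CPM in dpi 10 OL, while total RNA went from 37.51, 36.01 and 34.9 CPM to 141.6, 159.3 and 107.4 CPM (difference -2.32, q = 1.52e-06). Gusb went from 18.16, 19.57 and 16.83 CPM to 137.2, 164.4 and 115.9 CPM in total RNA, and from 24.16, 27.16 and 26.2 CPM to 42.06, 46.95 and 40.58 CPM in OL (difference -2.19, q = 3.07e-05). Without naive OL replicate 3 the counts were 13 (6 shared) and 58 (39 shared), and without dpi 10 OL replicate 2 they were 6 (6 shared) and 49 (35 shared). Summed phagocyte markers in total RNA rose from 295.7 to 389.6 CPM in naive cord to 8021 to 10950 CPM on dpi 10, and their part in these changes was not tested.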
